A study of Homo sapiens with 2 samples.

Results

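The genes examined were 7 matrix metalloproteinases (MMP1, MMP2, MMP3, MMP9, MMP10, MMP13 and MMP14) and 3 tissue inhibitors of metalloproteinases (TIMP1, TIMP2 and TIMP3), 10 of the 20037 protein-coding genes of the RefSeq annotation. The data were the places where RUNX2 and MTA1 were detected on chromatin. A peak was counted for a gene when it lay inside the gene or within 50 kb of it. A peak that shared at least 1 bp with a gene was counted as inside it, also where it crossed an end of the gene. MMP10, MMP1, MMP3 and MMP13 lie in a cluster of MMP genes on chromosome 11, with MMP12 between MMP3 and MMP13, and their windows touch, so they were taken as 1 locus, which gave 7 loci. In these loci lay 38 of 61700 RUNX2 peaks (0.062%) and 31 of 42683 MTA1 peaks (0.073%).

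The samples were untreated MDA-MB-231 cells, an established human line of triple-negative breast cancer. The methods name CUT&Tag, in which an antibody directs a transposase to the chromatin around its target. The labels describe steps that are unusual for CUT&Tag, so the preparation is uncertain. There was 1 library with an antibody against RUNX2, a transcription factor of the Runt family, and 1 library with an antibody against MTA1, which belongs to the NuRD complex of chromatin remodelling enzymes and histone deacetylases. The comparison addressed where the transcription factor and the NuRD subunit occupied the same sites. Neither library had a replicate, no control library was analysed here, and the number of reads is unknown, so the values below are descriptions of 2 peak lists without a test, and a missing peak may be an absent or a weak signal.

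Matrix metalloproteinases are zinc-dependent enzymes that are secreted or held at the cell surface as inactive precursors, and that cleave collagens and other proteins of the extracellular matrix once a propeptide is removed. TIMPs bind the active site of these enzymes and block it, and the balance of enzyme and inhibitor is known to matter for tissue remodelling, invasion and the breakdown of bone around metastases. RUNX2 drives bone formation and is known as a regulator of MMP13 in bone and cartilage cells.

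The positions are those of the deposited lists, counted from 1. The submitters' processing notes name hg19, but the positions fell on the gene ends of GRCh38. When the lists were moved by up to 300 kb either way in steps of 1 kb, the best match to gene ends within 2 Mb of each member locus was within 1 kb of the listed position at 7 of 7 loci in both lists. The margin was narrow for RUNX2 at the cluster, with 9 gene ends matched against at most 8 after moves beyond 5 kb, and at TIMP3, with 12 against 11. Larger moves and hg19 gene positions were not compared. Coordinates are therefore given as GRCh38.

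The promoters of TIMP1 and MMP10 are shown because a peak lay on each of them. Each line gives the 250 bases before the gene start, 5′ to 3′ on the strand of the gene, from RefSeq on GRCh38.p14, namely chrX:47582186-47582435 on the + strand for TIMP1 and chr11:102780629-102780878 on the - strand for MMP10. Capitals mark the core RUNX motif TGTGGT in TIMP1 and the TATA box TATAAA in MMP10.
TIMP1: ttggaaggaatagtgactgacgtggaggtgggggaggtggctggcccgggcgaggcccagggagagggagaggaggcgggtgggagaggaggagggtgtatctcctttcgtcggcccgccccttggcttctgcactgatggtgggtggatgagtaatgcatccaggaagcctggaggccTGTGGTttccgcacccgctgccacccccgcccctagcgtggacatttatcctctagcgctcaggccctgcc
MMP10: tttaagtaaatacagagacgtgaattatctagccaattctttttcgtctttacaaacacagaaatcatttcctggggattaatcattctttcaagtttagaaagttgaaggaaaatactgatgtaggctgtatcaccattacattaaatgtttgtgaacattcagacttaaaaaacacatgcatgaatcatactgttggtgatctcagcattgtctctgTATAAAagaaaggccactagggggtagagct

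All 250 bases of the TIMP1 promoter were covered by both a RUNX2 and an MTA1 peak. The RUNX motif began at -71 from the start, and its middle lay 20 bp from the centre of the RUNX2 peak and 48 bp from the centre of the MTA1 peak. On the MMP10 promoter a RUNX2 peak covered the last 56 bases and the start itself. The TATA box, which began at -31, lay inside that peak, and no MTA1 peak touched this promoter.

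Promoter windows were found for 4 of 10 members, MMP10, MMP14, TIMP1 and TIMP3, each with 250 bases before and 50 bases after the start. They were searched on both strands for the RUNX core (TGTGGT, or ACCACA on the other strand) and for the AP-1 element TGAGTCA, or TGACTCA, and on the gene strand for TATAAA. The MMP14 window held 1 RUNX core, at -177, 2173 bp away from the nearest RUNX2 peak. The TIMP3 window held none of the motifs, none of the 4 windows held the AP-1 letters, and no 2 matches overlapped. Only exact letters were counted. Sequences that differ by 1 base, such as TGAGTAA in the printed TIMP1 promoter, were not, so an AP-1 site of another spelling may be present. Among 35116 promoter windows of this length 13.1% held the RUNX core, 4.95% the AP-1 element and 7.33% the TATA box. The RUNX core was held by 10.8% of windows with a RUNX2 peak on them (95% exact interval 10.2 to 11.4) and by 14.0% of those without one (13.6 to 14.5). For MTA1 peaks these shares were 9.07% (8.54 to 9.62) and 14.9% (14.4 to 15.3), so the lower share was not particular to RUNX2 peaks. The windows also differed in CG pairs, with 2 in MMP10, 10 in MMP14, 16 in TIMP1 and 31 in TIMP3, against a median of 14 over all windows.

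**Figure D1:**
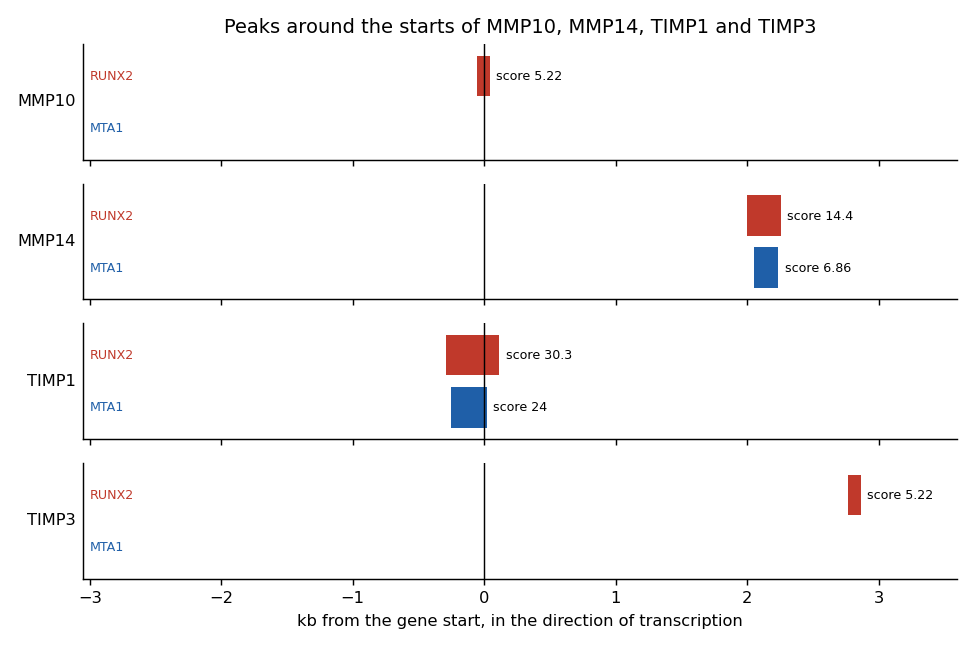
RUNX2 (red) and MTA1 (blue) peaks within 3 kb of the start of the 4 members with a known start, plotted as boxes by distance from the start in kb, in the direction of transcription, with their scores. TIMP1 is the only 1 of the 4 with peaks of both lists on its start, MMP10 has a RUNX2 peak alone, and the peaks of MMP14 and TIMP3 lie 2001 bp or more past the start.

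The cluster on chromosome 11 held 5 RUNX2 and 2 MTA1 peaks in 285 kb, none of them in the top 10% of its list by score. The score is the authors' own and its scale is not stated, so a peak was placed by the percent of its own list with a lower score. MMP1 and MMP13 are collagenases, which cut fibrillar collagen, and MMP3 and MMP10 are stromelysins, which have a wide range of matrix substrates and can activate other MMP precursors.

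MMP10 carried the only peak of the cluster inside a member. This RUNX2 peak (chr11:102780586-102780684) was 99 bp wide, ran from -56 to 42 around the start and had a score of 5.22, with 29.3% of the RUNX2 list below it. At 9995 bp beyond the far end of MMP10 a further RUNX2 peak (chr11:102760382-102760507, score 9.33, 66.1% below) overlapped an MTA1 peak that scored 4.84, and 14.9% of the MTA1 list was below the latter. The 3 RUNX2 peaks and the 1 MTA1 peak within 50 kb of MMP10 were also those within 50 kb of MMP1, which had no peak inside, and the nearest RUNX2 and MTA1 peaks lay 9235 and 29326 bp from MMP1.

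MMP3 had 1 peak of each list within 50 kb, and they overlapped by 268 bp. The RUNX2 peak (chr11:102851386-102851676) had the highest score of the cluster, 14.5, with 79.9% of its list below, and the MTA1 peak had a score of 10.3, with 65.6% below. The pair lay 7777 bp from MMP3 and within 3 kb of an end of the uncharacterised gene LOC124902741. MMP13 had 1 RUNX2 peak, 99 bp wide and 7204 bp from the gene, with a score of 5.22. No MTA1 peak lay within 50 kb of MMP13, and the nearest was 80377 bp away with a score of 7.005.

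**Figure D2:**
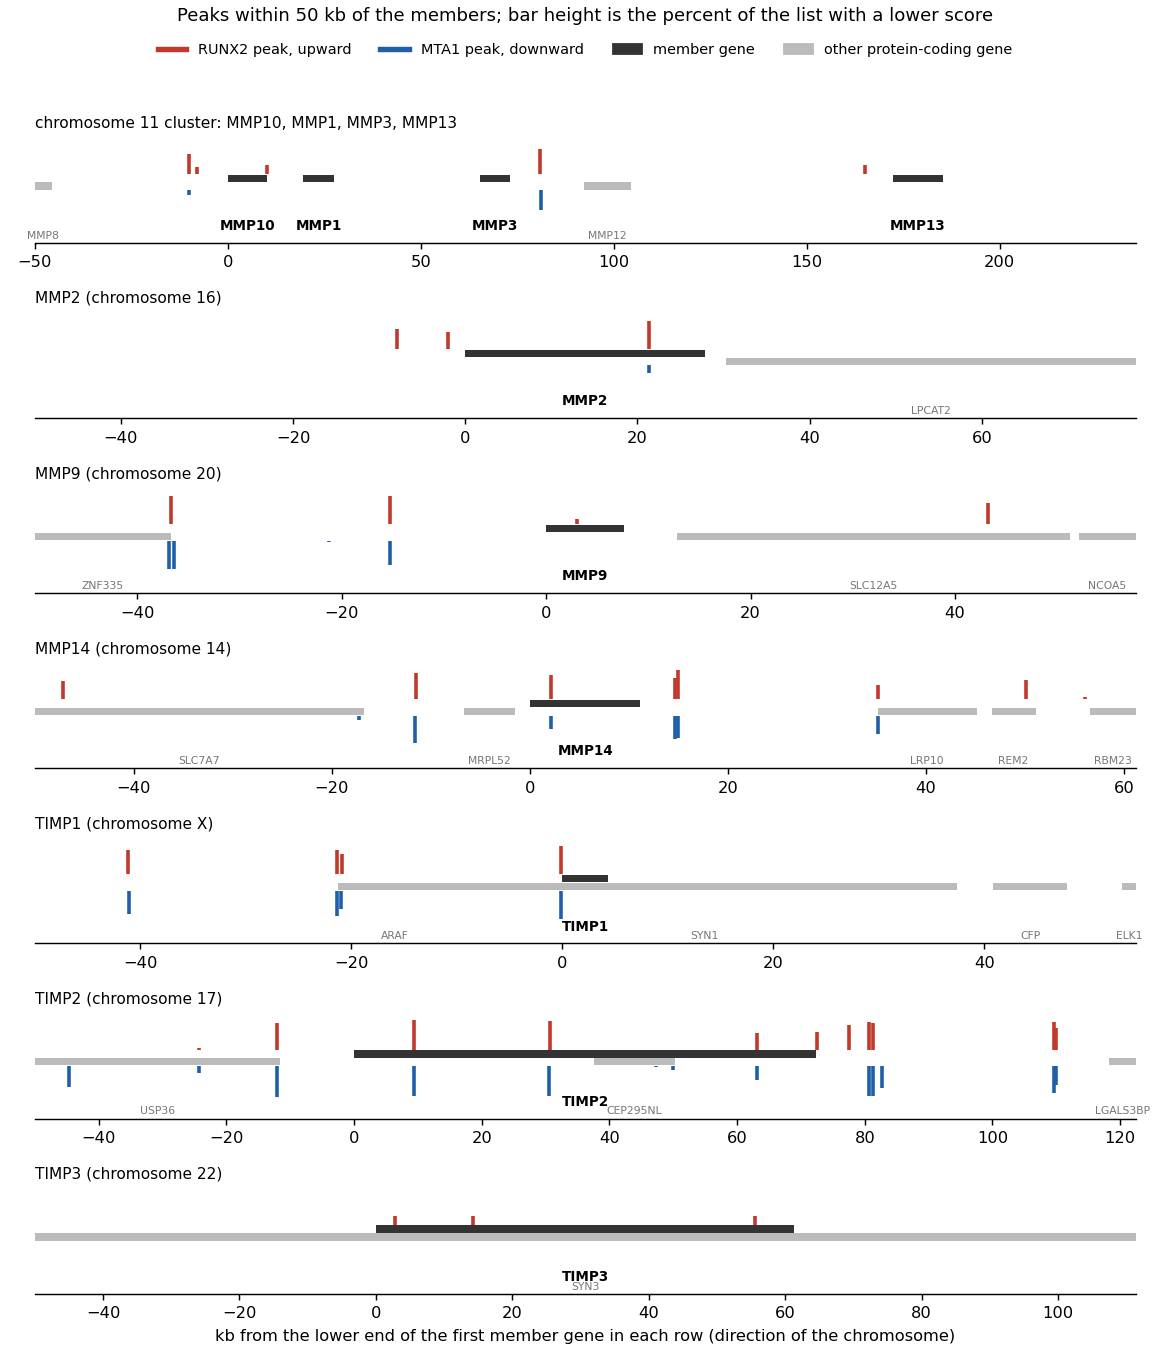
Peaks along the 7 loci, with the RUNX2 peaks drawn upward in red and the MTA1 peaks downward in blue, the bar height giving the percent of the list with a lower score, member genes in black and other protein-coding genes in grey; the horizontal axis is the distance in kb from the lower end of the first member gene. The tall bars stand in the TIMP2, MMP14, MMP9 and TIMP1 rows, often in pairs, while the cluster has few bars and TIMP3 has 3 short RUNX2 bars and none for MTA1.

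The gelatinases MMP2 and MMP9, which cleave denatured collagen and the collagen of basement membranes, had 1 and 5 MTA1 peaks within 50 kb. The MTA1 peak of MMP2 lay inside the gene, while MMP9 had none inside, and of its 5 peaks 1 had MMP9 as the nearest protein-coding gene. MMP2 had 3 RUNX2 peaks. The highest (chr16:55500048-55500313, score 25.4, 91.5% of the list below) lay inside the gene, 6378 bp from its upper end, and contained the whole of the MTA1 peak. That MTA1 peak had the narrowest width of its list, 116 bp, and a score of 5.53, with 24.4% below, so the same site was high in the RUNX2 list and low in the MTA1 list. The other RUNX2 peaks lay 1833 and 7584 bp outside the lower end, with scores of 7.54 and 9.30, and neither overlapped an MTA1 peak.

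MMP9 had 4 RUNX2 and 5 MTA1 peaks, but few were at the gene. Inside it lay 1 RUNX2 peak of 99 bp with a score of 4.43, 3003 bp from the lower end, with 16.7% of the list below and no MTA1 peak on it. The highest-scoring RUNX2 peak of the locus (chr20:45993530-45993804, score 25.7, 91.7% below) lay 15104 bp away, had MMP9 as its nearest protein-coding gene and lay on an MTA1 peak that scored 14.8, with 79.4% below. A wide RUNX2 peak of 863 bp with a score of 24.4 lay within 3 kb of an end of ZNF335, a zinc finger gene, 36240 bp from MMP9. It overlapped 2 MTA1 peaks with scores of 23.4 and 24.6, the highest MTA1 scores at this locus. At SLC12A5, a potassium chloride cotransporter gene on the other side, there was a RUNX2 peak with a score of 10.49 and an MTA1 peak with a score of 3.49, which lay apart from each other. The remaining MTA1 peak, with a score of 3.75, overlapped no RUNX2 peak.

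MMP14 encodes a membrane-anchored enzyme that cleaves collagen at the cell surface and activates the precursor of MMP2. Its locus held 8 RUNX2 and 6 MTA1 peaks, the most after the TIMP2 locus in both lists, and 5 peaks of each list overlapped the other. Inside the gene, 2001 bp past the start, a RUNX2 peak (chr14:22838586-22838838) with a score of 14.4 contained an MTA1 peak with a score of 6.86. Of their lists, 79.8% and 43.5% scored lower.

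The second-highest RUNX2 peak of all member loci (chr14:22851447-22851705, score 40.1, 97.1% below) lay 3689 bp past the far end of MMP14. Its MTA1 partner had a score of 12.7, and closer to the gene, at 3330 bp, a second pair had scores of 10.0 for RUNX2 and 13.9 for MTA1. Upstream, 11303 bp from the start, lay a pair with 87.5% of the RUNX2 list and 88.3% of the MTA1 list below it, with MRPL52, a mitochondrial ribosomal protein gene, as the nearest protein-coding gene. The fifth pair was at LRP10, with scores of 6.11 for RUNX2 and 9.001 for MTA1. The peaks without a partner were 3 in the RUNX2 list, with scores of 3.67 to 8.53, and 1 in the MTA1 list, with a score of 4.84.

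The inhibitors differed among themselves. TIMP1 had paired peaks only, TIMP2 had the most and the strongest peaks, and TIMP3 had no MTA1 peak and only low-scoring RUNX2 peaks. TIMP1 is a secreted inhibitor, TIMP2 also takes part in the activation of the MMP2 precursor together with MMP14, and TIMP3 is bound to the matrix and also inhibits ADAM17.

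At TIMP1, 4 of 4 RUNX2 peaks overlapped 4 of 4 MTA1 peaks. The pair on the start was the highest of the locus in both lists. The RUNX2 peak (chrX:47582144-47582551, score 30.3, 94.1% below) ran from -292 to 115, and the MTA1 peak (chrX:47582185-47582454, score 24.0, 91.7% below) ran from -251 to 18 within it. In the annotation TIMP1 lies within SYN1, a synapsin gene, so these peaks overlapped both genes. The nearest gene of the other 3 pairs was ARAF, a protein kinase gene, and 2 of them lay within 3 kb of an end of it. Their RUNX2 scores were 13.9, 14.1 and 9.69 and their MTA1 scores 12.7, 16.6 and 8.99, and 59.0% or more of its list was below each of these peaks.

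TIMP2 had 11 RUNX2 and 13 MTA1 peaks, of which 9 and 9 overlapped. The highest-scoring RUNX2 peak of all member loci (chr17:78862132-78862577, score 41.4, rank 1658) lay inside TIMP2, 9155 bp from its lower end, on an MTA1 peak with a score of 37.5 whose centre was 2.5 bp away. A second pair inside the gene was the widest of all members, with a RUNX2 peak of 952 bp (chr17:78883131-78884082, score 31.5, rank 3342) and an MTA1 peak of 941 bp (score 38.7, rank 883). Both sites were in the top 10% of both lists. The third pair inside the gene was weaker, with scores of 7.29 for RUNX2 and 6.99 for MTA1.

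Beyond the upper end of TIMP2, at 8094 and 8638 bp, lay further pairs in which the MTA1 peaks ranked above the RUNX2 peaks. Their RUNX2 scores were 24.2 and 18.5, with 90.7% and 85.6% of the list below, and their MTA1 scores were 37.6 and 37.7, with 97.7% below each. The latter, at rank 979, was the third-highest MTA1 peak of all member loci. The highest MTA1 peak of all member loci (chr17:78840697-78841146, score 69.4) held rank 33 of the MTA1 list and lay at USP36, a deubiquitinase gene, 11831 bp from TIMP2, on a RUNX2 peak with a score of 20.97.

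At the upper end of TIMP2 itself there was a RUNX2 peak of 119 bp with a score of 7.78, 58.2% of the list below it and no MTA1 peak on it. A RUNX2 peak 5041 bp beyond that end had a score of 15.1, the highest among the 15 member RUNX2 peaks without a partner. Inside TIMP2 and at CEP295NL, a gene nested in it, lay 2 MTA1 peaks without a partner, with scores of 3.28 and 4.70. A weak pair lay inside USP36, with scores of 3.67 for RUNX2 and 5.33 for MTA1. A further 2 pairs lay near LGALS3BP, which encodes a secreted glycoprotein, with RUNX2 scores of 22.7 and 10.9 and MTA1 scores of 21.2 and 9.14. The other MTA1 peaks without a partner had scores of 10.9 and 11.6, so each list had lone peaks in its upper part at this locus.

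TIMP3 had 3 RUNX2 peaks, all inside the gene, at 2767, 14189 and 55489 bp past the start. Each was 99 bp wide with a score of 5.22. No MTA1 peak lay within 50 kb of TIMP3, and the nearest was 242700 bp away with a score of 5.15. TIMP3 lies within SYN3, another synapsin gene, in the annotation, so these peaks also lay inside SYN3.

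The value 5.22 is the most common score of the RUNX2 list, carried by 6168 peaks, of which 15.3% overlapped an MTA1 peak (95% exact interval 14.4 to 16.3). It was carried by 5 member peaks, all of the narrowest width of 99 bp, at the start of MMP10, near MMP13 and 3 times in TIMP3, and 0 of these 5 overlapped an MTA1 peak. The RUNX2 peaks on the MMP10 start, nearest MMP13 and inside TIMP3 were thus among the narrow, low-scoring peaks of the list.

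**Figure D3:**
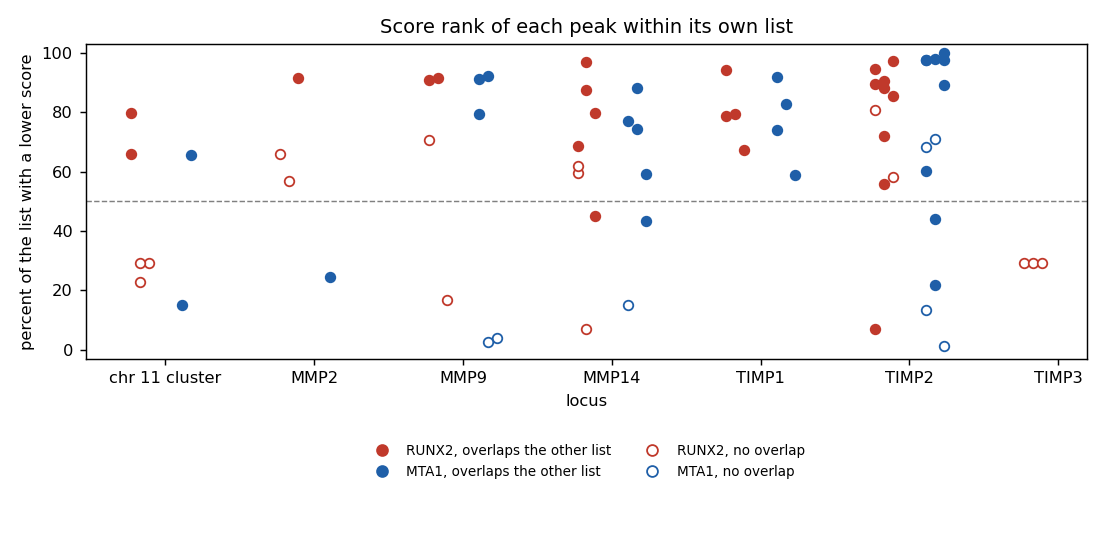
The percent of the list with a lower score for each of the 38 RUNX2 (red) and 31 MTA1 (blue) member peaks, by locus, with filled circles for peaks that overlap the other list and open circles for those that do not; the dashed line marks the middle of the list. Filled circles fill the upper part at TIMP1, TIMP2, MMP9 and MMP14, and the 3 peaks of TIMP3 and 3 of 5 RUNX2 peaks of the cluster are open and below the line.

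Of the 38 RUNX2 member peaks 23 (60.5%, 95% exact interval 43.4 to 76.0) shared at least 1 bp with an MTA1 peak, against 45.4% of all RUNX2 peaks and 47.6% of those within 50 kb of a protein-coding gene. The latter values lay inside the interval. Of the 31 MTA1 member peaks 24 (77.4%, 58.9 to 90.4) shared at least 1 bp with a RUNX2 peak, against 65.5% and 66.7%, which also lay inside it. The intervals cover counting error over peaks only. The peaks of 1 locus are not independent, and TIMP2 gave 9 of the overlapping peaks in each list.

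The median member peak lay above the middle of its list, although 10 of 38 RUNX2 and 10 of 31 MTA1 member peaks lay below that middle, among them 3 of 3 RUNX2 peaks of TIMP3 and 3 of 5 of the cluster. The median member peak had 69.6% of the RUNX2 list or 70.9% of the MTA1 list below it. In the top 10% were 8 RUNX2 peaks (21.1%) and 8 MTA1 peaks (25.8%), against 10.3% and 10.8% of peaks within 50 kb of a protein-coding gene. No interval was computed for these shares, and the difference was not tested. The TIMP2 locus gave 3 of these RUNX2 and 5 of these MTA1 peaks, the highest of the latter at USP36. The MMP9 locus gave 2 in each list, its MTA1 ones at ZNF335, and the cluster and TIMP3 gave 0 in both. Overlapping member peaks had a median of 85.6% of the RUNX2 list below them and those without a partner 29.3%. In the MTA1 list these medians were 78.3% and 13.5%. Overlapping and lone peaks stood apart in the same direction over the whole lists, with 72.4% and 29.3% for RUNX2 and 65.2% and 24.4% for MTA1.

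The overlapping peaks formed 24 pairs, since the wide RUNX2 peak at ZNF335 met 2 MTA1 peaks. Their centres lay 1.5 to 259.5 bp apart with a median of 29.5 bp. The RUNX2 peak ranked higher within its list in 12 pairs and the MTA1 peak in 12. Both peaks were in the top 10% in 6 pairs, which lay at TIMP2, at ZNF335 near MMP9 and on the start of TIMP1. Spearman's rho between the ranks was 0.63 over the 24 pairs, given as a description because pairs share loci and a pair exists only where both peaks were called.

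**Figure D4:**
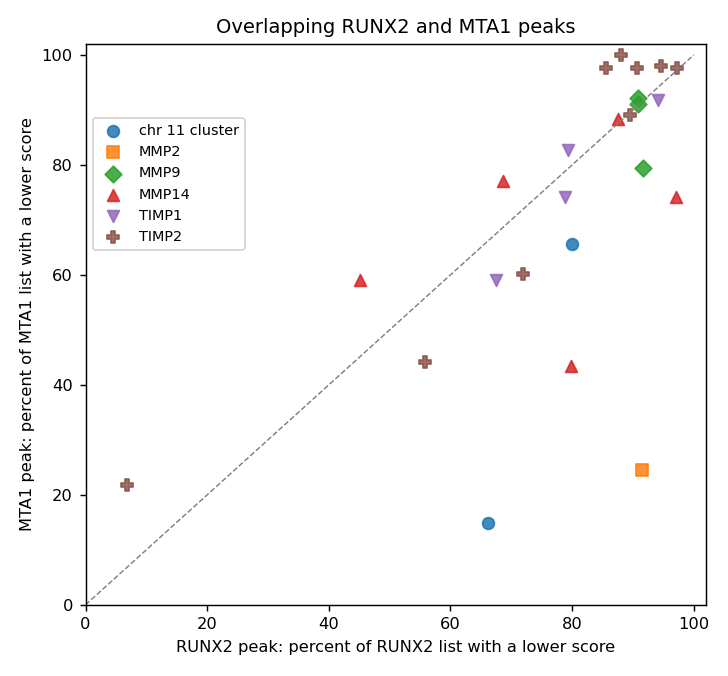
Each of the 24 overlapping pairs, plotted by the percent of the RUNX2 list (horizontal) and of the MTA1 list (vertical) that scored lower, with the locus as the symbol and the dashed line at equal ranks. The pairs at MMP2 (91.5% and 24.4%) and below MMP10 (66.1% and 14.9%) lie farthest under the line, and TIMP2 pairs crowd the upper right corner.

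RUNX2 had a peak inside or within 50 kb of 10 of 10 members, where 90.8% of all protein-coding genes had one. MTA1 had one for 8 of 10, where 86.6% of all genes had one, and both lists for 8 of 10, where the share of all genes was 84.9%. MMP13 and TIMP3 were the members without MTA1. These shares were near those of all genes.

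Inside the gene, 7 of 10 members had a RUNX2 peak and 4 of 10 an MTA1 peak (MMP2, MMP14, TIMP1 and TIMP2), against 62.9% and 60.6% of all protein-coding genes. MMP1, MMP3 and MMP13 had no peak of either list inside. A member was counted as having a peak at its start when it lay within 3 kb of the start, or of either gene end where the reference did not give the start, which was the case for MMP1, MMP2, MMP3, MMP9, MMP13 and TIMP2. RUNX2 had such a peak at 6 of 10 members (MMP2, MMP10, MMP14, TIMP1, TIMP2 and TIMP3), where 57.2% of all genes had one. MTA1 had such a peak at 2 of 10, MMP14 and TIMP1, where 57.3% of all genes had one. Both lists had it at the same 2 of 10, where the share was 50% of all genes. These 2 were among the 4 members with a known start, and of the 15843 genes with a known start 51.7% had both, so this narrower comparison showed no shortfall. With 10 genes and no replicate library the differences from all genes were not tested.

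The number of peaks per gene ran from 1 RUNX2 peak at MMP3 and MMP13 to 11 at TIMP2, and from 0 MTA1 peaks at MMP13 and TIMP3 to 13 at TIMP2. The median over the 10 members was 3 RUNX2 and 1 MTA1 peaks, against 5 and 4 over all protein-coding genes. TIMP2 and MMP14 stood above the middle of all genes in both lists, with fewer RUNX2 peaks at 85.6% and 68.8% of genes and fewer MTA1 peaks at 96.9% and 66.2%. Longer genes have wider windows, and per 100 kb of window MMP14 had the most RUNX2 peaks (7.20) and TIMP2 the most MTA1 peaks (7.54), where the medians of all genes were 3.55 and 2.58. The cluster had 1.75 RUNX2 and 0.701 MTA1 peaks per 100 kb.

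**Figure D5:**
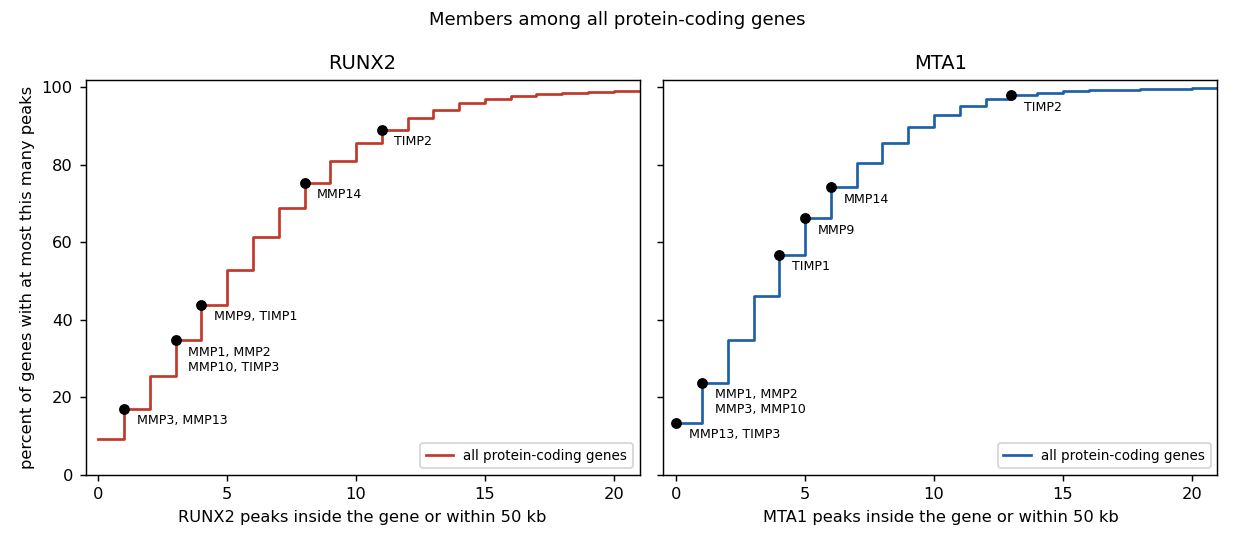
For each number of RUNX2 (left) or MTA1 (right) peaks inside a gene or within 50 kb, the line gives the percent of the 20037 protein-coding genes with at most that many, and black points mark the 10 members. TIMP2 and MMP14 are high on both lines, and MMP13, MMP3, MMP1, MMP2, MMP10 and TIMP3 are in the lower part of both.

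By place, 6 of 38 RUNX2 peaks lay at the start or end of a member by the rule above, 7 elsewhere inside a member and 25 outside. Of these 25, 5 were at another protein-coding gene by the same rule, which leaves out the far end of genes with a known start. For MTA1 the same places held 2, 6 and 23 of 31 peaks, and 8 of the 23 were at another protein-coding gene. The peaks farthest from a member that were still counted lay 47090 bp from MMP14 (RUNX2, score 8.03) and 44567 bp from TIMP2 (MTA1, score 10.9). The nearest ones left out lay 54027 bp (RUNX2, score 7.89) and 54544 bp (MTA1, score 12.4) from TIMP2.

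Other genes of matrix breakdown were read from a list of 29, all of which were in the annotation. Of 16 other matrix metalloproteinases 6 had a RUNX2 peak at the start and 4 an MTA1 peak, beside 57.2% and 57.3% of all protein-coding genes. MMP11, MMP19 and MMP25 had both, and 9 had neither. Of 4 other inhibitors 2 had both, namely TIMP4 and RECK, a membrane-anchored inhibitor. Of 9 activators and partners 7 had both (PLAU, PLAUR, FURIN, BSG, CD44, ADAM10 and ADAM17), and PLG and CTSB had neither. Over the list of 29 this was 15 with RUNX2, 13 with MTA1 and 12 with both. The last share was 41.4% (95% exact interval 23.5 to 61.1), and the 50% of all genes lay inside the interval. This pooled share mixed unlike groups. It was 18.75% (4.05 to 45.6) for the other matrix metalloproteinases, beside the 50% of all genes. For the other inhibitors it was 50% (6.76 to 93.2) and for the activators and partners 77.8% (40.0 to 97.2). These intervals treat the genes as independent, but some lie together, such as MMP8 and MMP12 in the chromosome 11 cluster. The differences between groups and from all genes were not tested.

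Among these genes the highest peaks at the start were at PLAUR, the receptor that holds the plasminogen activator urokinase at the cell surface, with a RUNX2 score of 68.6 and an MTA1 score of 52.4, where 99.7% and 99.5% of the lists were lower. ADAM17, the sheddase inhibited by TIMP3, followed with scores of 23.3 for RUNX2 and 45.7 for MTA1. PLAU, which encodes urokinase, had scores of 16.9 and 31.4. Of these 29 genes MMP8 and MMP12 lie within 50 kb of members in the cluster, and neither had a peak at its start in either list.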

How the data were processed

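CUT&Tag libraries of untreated MDA-MB-231 cells were made by the authors with an antibody against RUNX2 or MTA1, 1 library each. Per the labels and the methods, the antibody suppliers differ, and the labels describe adaptor ligation and size selection that are unusual for CUT&Tag, so the preparation is uncertain. The submitters' processing notes name CASAVA 1.4, Bowtie 0.12.8, MACS, MACS2 and hg19 without their roles; the threshold of the peak calling is not given in the sources used here. The authors deposited 1 peak list per library with a score per peak whose scale is not stated, so the score was used only to rank peaks within a list. The depth is unknown.

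The 17 RUNX2 and 15 MTA1 mitochondrial peaks were left out. Gene positions were read from RefSeq for GRCh38.p14, and none of its gene coordinates are given. Peaks sharing at least 1 bp were called overlapping. Shares carry exact (Clopper-Pearson) 95% intervals, and no p-value was computed. The counting steps were tested on simulated data. Named were all members, the highest peak of each list per member, peaks within 3 kb of its start, the 3 highest member peaks of each list, up to 4 pathway genes per group with the highest start peaks, those within 50 kb of a member, and neighbours holding a counted peak; pathway genes named beyond these were chosen after their values were seen. A further pathway gene was left out of the list and of its counts and is not reported here. The members and lists were chosen with earlier results of these data known. The tools were Python 3.11.15, pandas 2.3.3, numpy 2.4.6, matplotlib 3.10.9 and scipy 1.17.1.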

Additional observations from a re-analysis of the deposited data

How the results depend on the processing

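The numbers of peaks depended on the reach, and the shares that overlap depended on it little. With a reach of 10 kb in place of 50 kb the RUNX2 and MTA1 peaks numbered 23 and 15, and with 100 kb 62 and 48, against 38 and 31. Counting only peaks whose nearest protein-coding gene was a member gave 24 and 16, and keeping the 10000 highest scores per list gave 12 and 13. The share of RUNX2 member peaks on an MTA1 peak was 83.3% among those 10000 (10 of 12, 95% exact interval 51.6 to 97.9), against 60.5% without the filter and 52.4% of all RUNX2 peaks with it. The 52.4% lay inside the interval, and TIMP2 gave more of the 12 peaks than any other locus. The share of MTA1 member peaks on a RUNX2 peak was 91.7% after leaving out peaks of the narrowest width (22 of 24, 73.0 to 98.97), against 77.4% without that filter and 73.2% of all MTA1 peaks with it. The 73.2% also lay inside the interval. For each of these shares 9 of 10 alternatives stayed inside the exact interval of the main setting, 43.4 to 76.0 for RUNX2 and 58.9 to 90.4 for MTA1. These intervals are wide and most alternatives use part of the same peaks, so this says little about stability. The 2 members with peaks of both lists at the start became 1 with a window of 1 kb, 6 with 10 kb, 1 when peaks under the median score were left out and 1 with the 10000 highest scores per list. Of all protein-coding genes 44.3%, 60.8%, 35.4% and 13.7% had both under these settings, in the same order. TIMP1 was the member left in the counts of 1. Wider windows reach peaks that may belong to other genes, and which gene a peak acts on was not measured. The lists hold no counts, so the depth behind a missing peak is unknown. No paired analysis was possible because each antibody had 1 library and no test was run.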
